A study of Mus musculus with 2 samples.

Results

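The Sprouty and Spred genes encode inhibitors of signalling from receptor tyrosine kinases to ERK. The array design held 7 of them, 4 Sprouty genes (Spry1, Spry2, Spry3 and Spry4) and 3 Spred genes (Spred1, Spred2 and Spred3). The family was picked with earlier results of these data known, and its probes were then found by gene symbol, as all non-control probes named for a member, which gave 8 probes of 39429 on the array and 7 genes of 28312 with a symbol. Spred1 had 2 probes and each other gene had 1, and every probe was printed as 1 spot. No further probe carried an accession of these genes under another name.

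RNA came from an immortalized line of mouse embryonic fibroblasts (MEF) on a mixed C57BL/6 x B6:129 Ola background. Both groups carried floxed THOC5 alleles and the tamoxifen-activated recombinase Rosa26ERT2 Cre, which is expressed from the broadly active Rosa26 locus. The genotype label reads wildtype for the control sample and THOC5 knockdown for the THOC5-depleted sample, while both sample titles give the floxed alleles. THOC5 is a subunit of the THO complex, which takes part in mRNA processing and export. Control cells received no tamoxifen, and THOC5-depleted cells carry the label of a 2-day tamoxifen treatment. The schedule in the methods has 3 steps of 24 h each (10 µM tamoxifen, recovery, starvation), and the serum dose was 20%. Each group was measured on 1 dual-colour array, with unstimulated cells in Cy3 and cells after 1 h of serum in Cy5. There was no repeat and no array with the dyes exchanged. Serum and dye therefore cannot be told apart within an array, and loss of THOC5 cannot be told apart from tamoxifen itself, the culture or the array. No p-value or standard error between cultures could be given, and a gene is described as past the threshold when it differed by 2-fold or more and it was well above background in at least 1 of the channels compared. On each array, 43020 spots were read, between 62.1% and 64.4% of them were well above background in a channel, and no spot was saturated. As a check of the labels, the Thoc5 signal was 7.08-fold lower in unstimulated and 5.38-fold lower in serum-stimulated THOC5-depleted cells. Below, "without THOC5" is short for THOC5-depleted cells and means neither full absence of THOC5 nor that THOC5 caused a difference.

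Growth factors in serum activate receptor tyrosine kinases, which pass the signal through RAS, RAF and MEK to the kinase ERK. Sprouty proteins act upstream in this cascade, at the level of adaptors and RAF, and several of them are themselves transcribed in response to growth factors, so that they form a negative feedback loop. Spred proteins share the C-terminal Sprouty domain, carry an N-terminal EVH1 domain and bring neurofibromin, the RAS GTPase-activating protein encoded by Nf1, to the membrane. The loop is known for limiting how long ERK stays active after a growth factor arrives.

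Spry1 and Spry2, which moved in opposite directions after serum, are shown by the 250 bases before their annotated start, taken from RefSeq on GRCm38.p6. The Spry1 sequence lies at chr3:37639697-37639946 on the plus strand and the Spry2 sequence at chr14:105896820-105897069 on the minus strand. Capitals mark GGAA, the core letters bound by ETS factors, on either strand.
Spry1: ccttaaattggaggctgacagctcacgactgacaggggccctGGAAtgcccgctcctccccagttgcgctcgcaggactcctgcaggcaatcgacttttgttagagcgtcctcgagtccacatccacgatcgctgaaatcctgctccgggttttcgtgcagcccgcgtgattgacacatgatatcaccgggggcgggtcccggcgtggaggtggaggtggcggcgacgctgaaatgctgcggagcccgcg
Spry2: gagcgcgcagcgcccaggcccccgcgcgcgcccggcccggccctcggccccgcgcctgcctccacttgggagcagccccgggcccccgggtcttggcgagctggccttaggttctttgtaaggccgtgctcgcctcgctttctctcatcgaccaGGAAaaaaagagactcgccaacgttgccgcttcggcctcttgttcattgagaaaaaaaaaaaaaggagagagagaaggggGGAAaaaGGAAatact
GGAA occurred 1 time in the Spry1 sequence, with its first base at position -208 from the start, and 3 times in the Spry2 sequence, at -96, -16 and -9. The windows of Spred1, Spred2 and Spred3, which did not change past 2-fold with serum in control cells, held GGAA 4, 7 and 1 times. Of 32851 promoters of the same length, 93.4% held these letters on at least 1 strand. Before GGAA, 5 longer patterns had been searched on both strands. They were the CArG box of serum response factor (1.47% of promoters), the ETS site CCGGAA (12%), the AP-1 site TGANTCA (6.75%), the CRE TGACGTCA (1.55%) and the FOXO site GTAAACA (3.17%). None of these letters was found in the window of Spry1, Spry2, Spred1, Spred2 or Spred3. GGAA was added after that search, and CCGGAA contains it.

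In control cells serum was followed by a rise of Spry2 and Spry4, a fall of Spry1, and no change past 2-fold of the Spred genes. The Spry4 probe (NM_011898, mm9 chr18:38745923-38745982, minus strand) read 65.2 in unstimulated and 284 in serum-stimulated control cells, in arbitrary units of processed intensity. In THOC5-depleted cells it read 50.7 and 108. Serum samples were thus the higher in both arrays, and the serum-stimulated control sample stood above the other 3. The log2 serum ratio was 2.12 ± 0.29 in control cells, a 4.35-fold rise. Here and below, ± gives the error of the ratio as the scanner software estimated it, which is technical error of 1 array only. Of 18814 genes tested, 117 had a higher ratio than Spry4 (0.622%). The ratio was 1.57 with normexp, and 2.91 without dye normalization, where the median of all genes was 0.84.

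Spry2, an inhibitor of FGF signalling, was dim. Its probe (NM_011897, mm9 chr14:106291845-106291904, minus strand) read 15.8 and 63.1 in control cells and 13.9 and 22.1 in THOC5-depleted cells, before and after serum. The serum-stimulated control sample was again the highest, and both unstimulated values lay just above 11.2, the dimmest Cy3 signal that the software called well above background. The log2 serum ratio in control cells was 2.00 ± 0.32, a 4.0-fold rise, and 137 genes ranked higher (0.728%). Among probes printed as 10 spots at a similar brightness, the SD of the log2 ratio between spots had a median of 0.15 and reached 0.31. The size of this ratio depended on the background correction: it was 0.97 with normexp and an offset of 50, and 0.34 when every signal below 50 was raised to 50.

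Spry1, an inhibitor of FGF and RET signalling, went the other way. Its probe (NM_011896, mm9 chr3:37543403-37543462, plus strand) read 2274 in unstimulated and 710 in serum-stimulated control cells, and 782 and 469 in THOC5-depleted cells. The unstimulated control sample stood above the other 3, and the serum sample was the lower on both arrays. The log2 serum ratio in control cells was -1.68 ± 0.26, so that the signal was 3.20-fold lower after serum, and 66 of 18814 genes had a lower ratio (0.351%). At this brightness the median SD between repeated spots was 0.024, with a highest value of 0.17. Without dye normalization the ratio was -0.88, while the median of all genes moved to 0.84, and relative to that median Spry1 lay at -1.71.

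Against the background of all genes, 2 of the 6 members tested rose past 2-fold with serum in control cells, where 2.64% of genes did so, and 1 of 6 fell past 2-fold, where 1.73% did. Among genes within 2-fold of the mean signal of Spry2, 3.55% rose past 2-fold. The numeric conditions of the methods' filter, a ratio above 4 when rounded and a Cy5 signal above 200, kept 0.494% of genes and 1 member, Spry4. A further condition of that filter, on annotation in Ingenuity Pathway Analysis, was not applied. Spry2 met neither condition, as its ratio rounded to 4.0 and its Cy5 signal was 63.1. Signals in all 4 samples are drawn in the plot of the 8 probes.

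**Figure D1:**
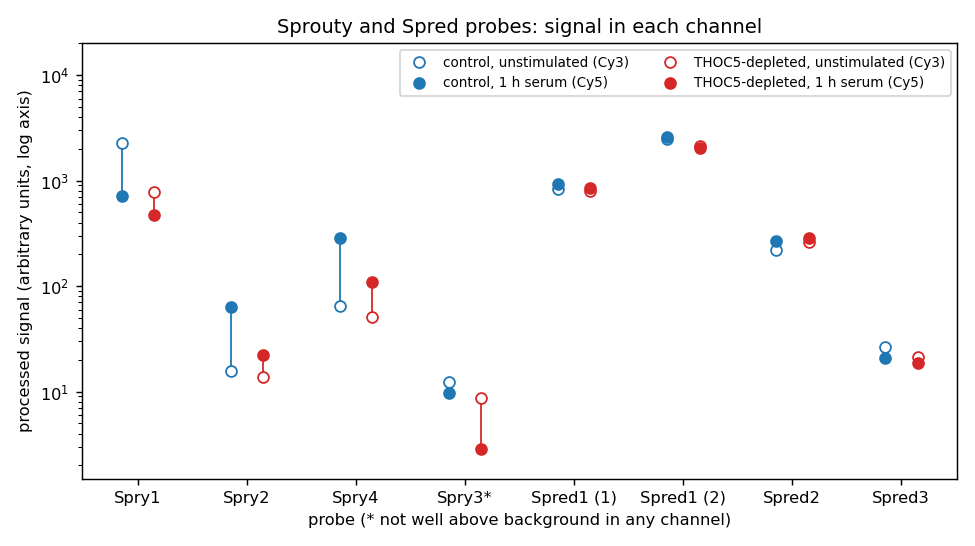
Processed signal (arbitrary units, log axis) of each of the 8 Sprouty and Spred probes, with open circles for unstimulated cells (Cy3), filled circles for cells after 1 h of serum (Cy5), blue for control cells and red for THOC5-depleted cells. Spry2 and Spry4 reached their highest signal in serum-stimulated control cells (63.1 and 284), and Spry1 its highest in unstimulated control cells (2274). Brightness is not comparable between probes.

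In THOC5-depleted cells the serum ratios of all 3 of these genes were nearer to no change. For Spry4 the log2 ratio was 1.09 ± 0.24, a 2.14-fold rise, and it was the only member past 2-fold (1 of 6 against 0.942% of 18574 genes). With normexp this ratio was 0.76, below 2-fold, and no member was past the threshold. For Spry2 it was 0.67 ± 0.35, or 1.59-fold, and for Spry1 it was -0.74 ± 0.22, or 1.67-fold lower after serum. No member fell past 2-fold, against 0.377% of genes. Without dye normalization the ratio was -0.0026 for Spry1 and 1.41 for Spry2, with the median of all genes at 0.75. For Spry2 it was 0.35 with normexp, and 0 when both signals were raised to 50.

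**Figure D2:**
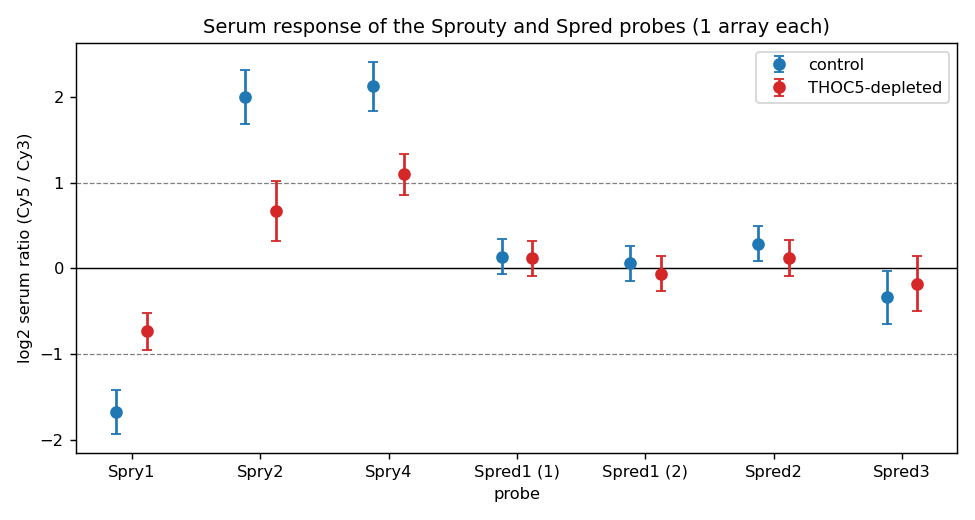
Log2 serum ratio (serum-stimulated over unstimulated) of each probe well above background, in blue for control and red for THOC5-depleted cells, with error bars giving the scanner software's technical error and dashed lines at 2-fold. Spry2 and Spry4 lay at 2.00 and 2.12 in control cells, against 0.67 and 1.09 without THOC5, Spry1 at -1.68 and -0.74, and the Spred probes between the dashed lines on both arrays.

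The difference of the log2 ratios, control minus THOC5-depleted, was 1.33 ± 0.47 for Spry2, a 2.52-fold lower serum ratio without THOC5. For Spry4 it was 1.03 ± 0.37, or 2.04-fold. Both exceeded the combined software error, while the spread between cultures was not measured. For Spry1 the difference was -0.94 ± 0.33, which was not past 2-fold. Of 18046 genes tested on both arrays, 113 had a larger positive difference than Spry2 (0.626%), 216 a larger one than Spry4 (1.20%), and 210 a more negative one than Spry1 (1.16%).

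Thus 2 of 6 members had a serum ratio at least 2-fold lower in THOC5-depleted cells, against 1.28% of all genes, and none had one at least 2-fold higher, against 0.964%. Of 479 genes past 2-fold in control cells and tested on both arrays, 40.3% had a ratio at least 2-fold lower in THOC5-depleted cells, and Spry2 and Spry4 were 2 of them. Among genes near the brightness of Spry2 as a whole, 1.97% had such a difference. Of 325 genes that fell past 2-fold in control cells, 14.5% still did so in THOC5-depleted cells, and Spry1 was not among these. Both sets of genes were selected on the same control ratio that enters the comparison, and selection of extreme ratios on 1 array by itself favours less extreme ratios on the other, so neither share measures a loss of response.

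The 2-fold calls on these differences did not hold under every setting. With normexp the difference was 0.61 for Spry2 and 0.82 for Spry4, and after the spread of log ratios was made equal on the arrays it was 0.91 and 0.51, all below 2-fold. With signals raised to 50 the Spry2 difference was 0.34. For Spry1 it was -0.95 with normexp and -0.56 with equal spread. No sign changed.

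**Figure D3:**
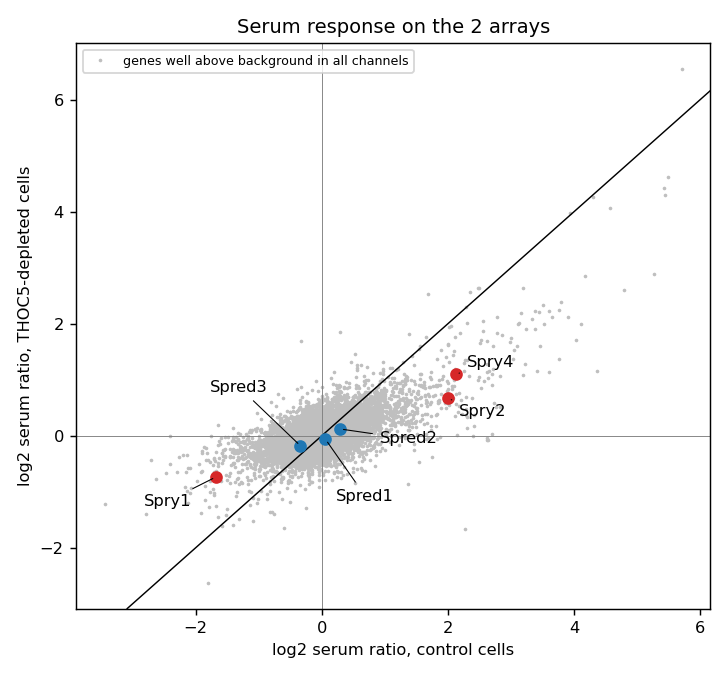
Log2 serum ratio in control cells (horizontal axis) against that in THOC5-depleted cells (vertical axis), with grey points for the 17240 genes well above background in all channels and large points for the members, red for Spry1, Spry2 and Spry4 and blue for the Spred genes. The diagonal marks equal ratios. Spry2 and Spry4 lay below it at positive ratios, Spry1 above it at negative ratios, and the Spred genes within the main cloud.

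A ratio can shrink through either of its channels, and the genes differed in this. For levels across the arrays, the signals were brought to a common scale with the Aquantile method, and differences are given as log2 of THOC5-depleted over control. In unstimulated cells Spry1 lay at -1.25, or 2.38-fold lower, while after serum it lay at -0.31. Unstimulated, 223 of 19090 genes were further down (1.17%). Spry2 and Spry4 showed the other arrangement. They lay at -0.03 and -0.18 in unstimulated cells, and at -1.36 (2.57-fold lower) and -1.21 (2.31-fold lower) after serum, where 0.973% and 1.35% of 18706 genes were further down. The unstimulated Spry2 signals of 15.8 and 13.9 lay just above 11.2, the dimmest Cy3 signal called well above background. A 2-fold lower Spry2 level could therefore not have been seen in unstimulated cells, and the value of -0.03 does not show an unchanged level.

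By count, 1 of 6 members was at least 2-fold lower in unstimulated THOC5-depleted cells, against 2.05% of genes, and none was 2-fold higher, against 2.23%. After serum, 2 of 6 were lower, against 2.23%, and none was higher, against 2.45%. The Spry1 difference in unstimulated cells lay between -1.54 and -1.22 over 5 alternatives. After serum, Spry4 lay between -1.39 and -0.96 and Spry2 between -1.52 and -0.71, the weakest value of each being that with normexp, which is below 2-fold. In arrays of whole cultures, fewer cells of a type and less RNA per cell cannot be told apart.

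Markers of the culture were read beside these levels. On the common scale, the 8 fibroblast markers had a summed signal of 358400 in unstimulated and 323700 in serum-stimulated control cells, and of 314000 and 275610 in THOC5-depleted cells. All 8 were well above background in control cells, but only 7 without THOC5, where Lum was not. In unstimulated cells 2 of 8 were at least 2-fold lower without THOC5, Col3a1 at -1.13 and Lum at least 3.00-fold lower, a bound set by the dimmest signal called well above background, and the median over the 8 was -0.33. Of 6 markers of epithelial, blood and endothelial cells, 3 were well above background in control and 4 in THOC5-depleted cells, their summed signal lay between 135 and 162 on that scale, and the epithelial cadherin Cdh1 was not well above background in any channel. In unstimulated cells the epithelial marker Epcam was at least 2.66-fold lower without THOC5, where it was not well above background. The blood cell markers Cd68 and Ptprc were well above background only in THOC5-depleted cells, at least 2.34-fold and at least 1.44-fold higher. Of the endothelial markers, Cdh5 lay at -0.83 and Pecam1 at 0.02. The part of these shifts in the lower Spry1 level was not tested.

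**Figure D4:**
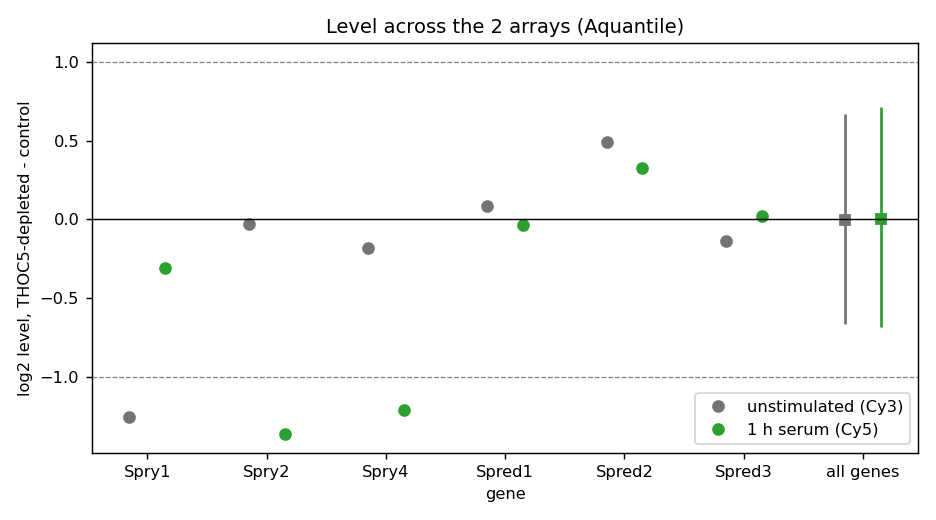
Log2 level in THOC5-depleted over control cells after Aquantile scaling, for unstimulated cells and for cells after 1 h of serum, in grey and green. Squares and their lines give the median and the 5th to 95th percentile of all genes, from -0.66 to 0.67 in unstimulated cells, and dashed lines mark 2-fold. Spry1 lay below the dashed line in unstimulated cells (-1.25), Spry2 and Spry4 after serum (-1.36 and -1.21).

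The 3 Spred genes were well above background in all 4 samples, and none passed 2-fold in any comparison, except that without dye normalization the control ratio of Spred2 was 1.13, where the median of all genes was 0.84. Spred1, the gene mutated in Legius syndrome, was read by 2 probes that lie 894 bases apart on mm9 chromosome 2. The brighter probe (117005906-117005965) read 2503 and 2604 in control cells, and 2124 and 2032 in the THOC5-depleted samples, before and after serum. Its log2 serum ratio was 0.06 ± 0.20 and -0.06 ± 0.20. The other probe (117004952-117005011) read 841 and 922 in control cells, against 793 and 859 in THOC5-depleted cells, with ratios of 0.13 ± 0.20 and 0.12 ± 0.20. All 4 of these ratios were smaller than their error.

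Spred2, which like Spred1 binds neurofibromin, was read at mm9 chr11:19922416-19922475. It read 222 and 270.5 in control cells, against 265 and 288 in THOC5-depleted cells. The serum sample was the higher on both arrays, with log2 ratios of 0.29 ± 0.21 and 0.12 ± 0.21. On the common scale Spred2 lay at 0.49 in unstimulated and 0.33 in serum-stimulated THOC5-depleted cells, and 8.49% of genes were further up in unstimulated cells. The brighter Spred1 probe lay at 0.09 and -0.03 on that scale. Spred3, which lacks the KIT-binding function of its relatives, was read at mm9 chr7:29944517-29944576 and was dim. It read 26.2 and 20.7 in control cells and 21.4 and 18.9 in THOC5-depleted cells, with log2 ratios of -0.34 ± 0.31 and -0.18 ± 0.32. The median SD between repeated spots at this brightness was 0.16 for control and 0.18 for THOC5-depleted cells, and the level differences were -0.14 in unstimulated cells and 0.02 after serum.

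The differences of the Spred ratios between arrays were 0.12 ± 0.29 for the brighter Spred1 probe, 0.17 ± 0.29 for Spred2 and -0.16 ± 0.44 for Spred3, each within its error. The Spry3 probe, which the design places on unplaced sequence of the X chromosome, read 12.2 and 9.66 in control cells and 8.78 and 2.84 in THOC5-depleted cells. None of these values was well above background, so that no ratio was taken, and Spry3 was not counted among the 6 members tested.

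The genes nearest to each member were found by the distance between their pairs of log2 serum ratios, over 17240 genes well above background in all channels. For Spry4 (2.12 and 1.09) the nearest were Vwce at 2.13 and 1.04, the ERK phosphatase Dusp6 at 2.12 and 1.19, and the histone demethylase Kdm6b at 2.10 and 0.99. For Spry2 (2.00 and 0.67) they were Usp17la at 2.06 and 0.63, the helix-loop-helix inhibitor Id2 at 1.98 and 0.59, and Mpp4 at 2.08 and 0.68. For Spry1 they were 8430437O03Rik at -1.71 and -0.64, the ISG15 protease Usp18 at -1.69 and -0.63, and 5730480H06Rik at -1.60 and -0.81. Within a distance of 0.25 lay 14 genes for Spry4, 24 for Spry2 and 13 for Spry1, but 7243 for Spred1, 3893 for Spred2 and 3999 for Spred3. The last 3 lay in the dense cloud of unchanged genes, and their nearest genes are not described. These pairs come from 2 arrays and are a description only.

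Around the members, 65 genes were read in 5 lists drawn up for the pathway, with earlier results of these data known. Of the receptors and adaptors upstream, 17 were tested in control cells, none rose past 2-fold and 1 fell, with a median log2 ratio of -0.06. It was the PDGF receptor gene Pdgfra, which read 1269 and 608 in control cells, against 435 and 386 in THOC5-depleted cells. Its signal was 2.09-fold lower after serum in control cells, and its unstimulated level was lower without THOC5 by a log2 difference of -1.28. Like Spry1, it was highest in unstimulated control cells. Of the 15 genes for RAS, RAF, MEK and ERK, none passed 2-fold in either direction on either array.

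Among 12 partners of Sprouty and Spred proteins, 1 rose past 2-fold in control cells. It was the ubiquitin ligase gene Siah2, with a 2.37-fold rise, against 1.77-fold in THOC5-depleted cells. The ratios of Nf1, which encodes neurofibromin, were 1.36 and 1.33, and those of Cbl, a ubiquitin ligase that binds Sprouty proteins, were 0.856 and 1.20.

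Of 9 genes listed as other feedback inhibitors, not all of them of this pathway, 4 rose past 2-fold in control cells and none fell. Their median log2 ratio was 0.72 over the list, against -0.02 over all genes. Those that rose were the ERK phosphatase genes Dusp4 (4.69-fold), Dusp5 (8.75-fold) and Dusp6 (4.34-fold) and the EGF receptor inhibitor Errfi1 (17.3-fold). In THOC5-depleted cells the ratios were 1.31, 4.04, 2.28 and 4.0. Those of Dusp4, Dusp5 and Errfi1 were therefore 3.57-fold, 2.17-fold and 4.31-fold lower, past the 2-fold threshold that Spry2 and Spry4 also passed, and that of Dusp6 was 1.90-fold lower. Dusp4 read 209 and 982 in control cells, against 786 and 1033 in THOC5-depleted cells, so that its unstimulated signal was the one that differed most between the arrays, unlike in Spry4. The unstimulated Spry2 signal was too dim for this comparison. Socs3, a cytokine signalling inhibitor of the same list named here after its values were seen, had ratios of 1.64 and 2.34 and made up the 4 genes past 2-fold in THOC5-depleted cells with Dusp5, Dusp6 and Errfi1.

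Of 11 transcripts known to depend on ERK, 6 passed 2-fold upward in control cells, with a median log2 ratio of 1.89, and 4 did so without THOC5, with a median of 0.74. The transcription factor genes Fos (52.2-fold and 93.4-fold) and Egr1 (15.4-fold and 15.7-fold) did not have a lower ratio in THOC5-depleted cells. Phlda1 (12.6-fold and 4.34-fold) and Ier3 (7.90-fold and 3.18-fold) had ratios 2.90-fold and 2.49-fold lower there. The third gene of the list with a ratio at least 2-fold lower was the AP-1 gene Fosl1 (3.71-fold and 1.67-fold), named after its values were seen, at 2.22-fold lower. Myc rose 3.95-fold in control cells against 1.98-fold with THOC5 depleted. Over the 5 lists, 64 genes were tested. In control cells 11 rose and 1 fell past 2-fold, beside 2.64% and 1.73% of all genes. In THOC5-depleted cells 8 rose and none fell, beside 0.942% and 0.377%. A serum ratio at least 2-fold lower without THOC5 was found for 6, and one at least 2-fold higher for 1, beside 1.28% and 0.964% of all genes. The lists were chosen with earlier results known, so these shares describe them and do not measure a response of the pathway.

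**Figure D5:**
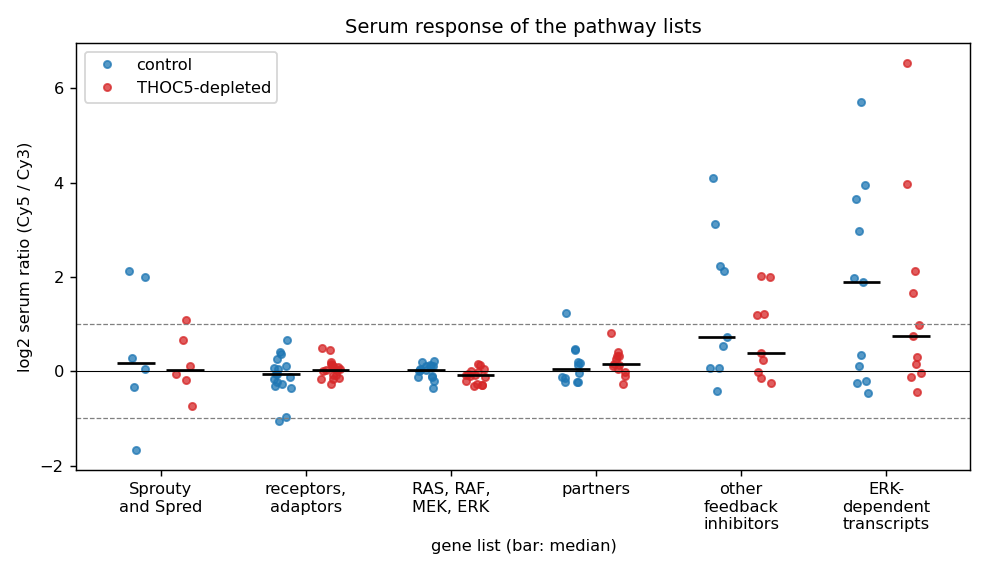
Log2 serum ratios of the genes in each pathway list and of the members in control (blue) and THOC5-depleted cells (red), with 1 point per gene and array, bars at the medians and dashed lines at 2-fold. The genes for RAS, RAF, MEK and ERK stayed within 2-fold on both arrays, while the other feedback inhibitors and ERK-dependent transcripts reached 17.3-fold (Errfi1) and 52.2-fold (Fos) in control cells.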

How the data were processed

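RNA of unstimulated and of serum-stimulated cells of each group was hybridised together, on 2 dual-colour Agilent arrays. The authors deposited the tables written by Feature Extraction 10.7.3.1, in which probes are placed on mm9. The deposited processed signals are intensities from which background was subtracted and whose dyes were balanced within each array (linear and LOWESS steps, per the file headers), with no scaling from array to array. The authors' log ratio is a log10 of Cy5 over Cy3, and its error was converted to log2. The deposited series table (score) holds 0 values below 0 and so lacks the sign; it served as an alternative once the sign of the scanner's ratio had been added. The number of columns not mapped to a sample is 0.

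Outlier spots were left out (239 and 234) and spots of a probe averaged on the log2 scale. Names were updated through accessions for 26412 of 35777 probes with a symbol, 3093 of which changed. A gene with several probes was represented by its brightest, by the mean of all 4 channels. In counts, a channel not well above background was raised to the dimmest signal that was, so that such folds are bounds. Levels across arrays used Aquantile in limma 3.58.1 (R 4.3.3), and other values Python 3.11.15 with numpy 2.4.6 and pandas 2.3.3. Figures used matplotlib 3.10.9. The calculations were tested on simulated data. Promoter sequences came from RefSeq (GRCm38.p6), which held 5 of the 7 genes.

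The members and lists were chosen with earlier results of these data known. Named were all 7 members with all probes, list genes past 2-fold in control cells (up to 5 per list), Nf1 and Cbl, the 3 genes nearest to a member, and Thoc5 and the cell type markers as checks. Fosl1 and Socs3 were named outside this rule, after their values were seen. With 1 array per group no test was run, and precision is limited by the number of arrays. Alternatives were background correction with normexp (offset 50), no dye normalization, the series table, a signal floor of 50, the mean of all probes, outliers kept, centring, a common spread, thresholds of 1.5-fold and 4-fold, and other scalings between arrays.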

Additional observations from a re-analysis of the deposited data

Results flagged for a closer look

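The brighter Spred1 probe had serum ratios of opposite sign on the arrays, 0.06 in control and -0.06 in THOC5-depleted cells on the log2 scale. The difference of 0.12 was smaller than the combined software error of 0.29, and it was not tested, since each group held 1 array. The second Spred1 probe had positive ratios on both arrays (0.13 and 0.12).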

How the results depend on the processing

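Under the 8 alternatives, the differences between arrays of Spry1, Spry2 and Spry4 kept their sign, and so did the serum ratios of Spry1 and Spry4, except that Spry1 in THOC5-depleted cells was at -0.0026, or no change, without dye normalization. For Spry2 in THOC5-depleted cells both channels lay at the floor of 50, and the ratio was 0. With normexp, 1 member rose past 2-fold in control cells but 0 without THOC5, 0 had a ratio 2-fold lower without THOC5, and 0 were 2-fold lower after serum. With the floor of 50, 1 member rose in control cells and 1 had the lower ratio. Without dye normalization, 3 members rose and 0 fell in control cells, 2 rose in THOC5-depleted cells, and pathway genes past 2-fold upward numbered 25 in control and 20 in THOC5-depleted cells, as the medians of all genes moved to 0.84 and 0.75. With both arrays scaled to one spread, 0 members had the lower ratio. At 4-fold, 1 member rose and 0 fell in control cells, 0 rose in THOC5-depleted cells, 0 had the lower ratio, and 4 pathway genes rose in THOC5-depleted cells. At 1.5-fold, 2 members rose and 1 fell in THOC5-depleted cells, and 1 had a higher ratio there. Without scaling between arrays, the median of all genes was -0.26 in Cy3 and -0.25 in Cy5. Low signal left Spry3 without a ratio, and Spry2 and Spred3 were dim. No paired analysis was possible because each group held 1 array.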
